A study of Mus musculus with 9 samples.

Results

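In natural killer (NK) cells grown from mouse bone marrow, 67 genes had more transcript after TGF-β1 and less again where the Smad3 inhibitor SIS3 had been given first. They were chosen by their own measured levels among the 16876 genes of the count table, in CPM (the expected count divided by the library total and multiplied by 1000000). A member had a mean of at least 5 CPM over all libraries, a log2 ratio of TGFb over Ctrl of at least 0.4, and a log2 ratio of SIS3_TGFb over TGFb of -0.3 or lower, with 0.5 CPM added to each mean. In addition, its lowest TGFb library lay above its highest Ctrl and its highest SIS3_TGFb library. Both steps therefore chose the members, and both are given below as descriptions, without a test.

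The study sequenced poly-A RNA from 9 libraries in 3 groups of 3, all from C57BL/6 marrow. Marrow cells were cultured for 4 days with IL-7, Flt3L, SCF and IL-15, followed by a week with IL-15 at 50 ng/mL and IL-2 at 20 ng/mL. Ctrl cells were left untreated. TGFb cells received 5 ng/mL TGF-β1 for 3 h. SIS3_TGFb cells were kept with 10 µM SIS3 for 3 h and then received the same TGF-β1 treatment. SIS3 was always combined with TGF-β1, and the labels name no solvent control, so an effect of SIS3 on basal transcription and one on the TGF-β response cannot be told apart. The labels do not say whether replicates came from separate mice or cultures, so p-values cover only the variation among these libraries.

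TGF-β binds a complex of receptor kinases that phosphorylates Smad2 and Smad3. These join Smad4, enter the nucleus and act on genes together with other transcription factors, and some early targets, such as Smad7, feed back on the pathway. SIS3 was described as a small molecule that lowers the phosphorylation of Smad3. In NK cells TGF-β is known for restraining killing, cytokine output and growth.

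Library totals ran from 15714973 to 16718673 expected counts. All 14 NK markers were above 0 in each library, and their summed level ranged from 20745 to 21858 CPM in Ctrl, 15886 to 17307 CPM in TGFb and 17255 to 17491 CPM in SIS3_TGFb. No member of the set is on any of the 9 marker lists. T cell markers, led by Thy1, summed to 1431 to 1562, 1537 to 1681 and 1291 to 1372 CPM in the same order of groups. The stromal and endothelial list, nearly all Pecam1, came to 1090 to 1118, 1321 to 1381 and 1047 to 1145 CPM, and so was also highest in TGFb. Macrophage markers overlapped between groups (1211 to 1538, 933 to 1302 and 960 to 1507 CPM). The part of these lists in the levels of the members was not tested. In bulk RNA, fewer cells of a type and less RNA per cell cannot be told apart.

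Of 9700 genes with a mean of at least 5 CPM, 823 met the rise, 74 of those also met the fall, and 67 of those had TGFb libraries clear of the others (0.691% of 9700). Among all 9700 genes, 522 (5.38%) had every TGFb library above every other library, whatever the size of the steps. Another 731 genes met the rise, with TGFb libraries clear of Ctrl, but not the fall. How many genes qualify depends on scaling. With CPM scaled by TMM factors 115 genes met the same rule, and with DESeq2 size factors 120, and in both cases the 67 were among them. Asking for steps of at least 0.58 in size left 14.

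**Figure D1:**
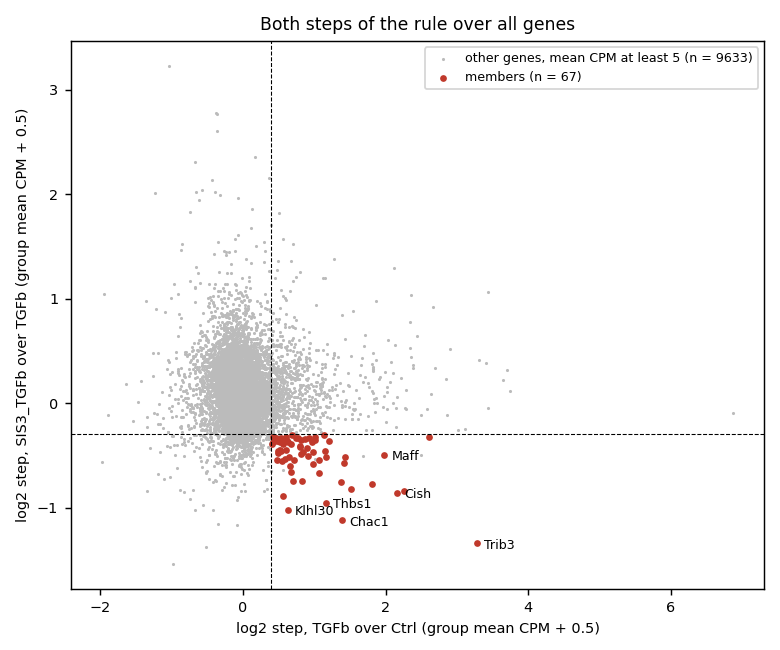
Each point is a gene with a mean of at least 5 CPM. The horizontal axis is the log2 ratio of TGFb over Ctrl and the vertical axis that of SIS3_TGFb over TGFb, both from group mean CPM plus 0.5. Dashed lines mark the thresholds of 0.4 and -0.3, and the 67 members (red) lie in the lower right, with Trib3 farthest out.

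The members' rise ran from 0.41 to 3.28 on the log2 scale (median 0.77) and their fall from -1.34 to -0.30 (median -0.45). The fall took back between 24.4% and 143% of the rise in CPM, with a median of 66.1%. It took back the whole rise or more in 5 members, 75% to 100% in 20, 50% to 75% in 28, 25% to 50% in 13 and less than 25% in 1. These shares are on CPM by library total and depend on scaling. With TMM factors more members reached the whole rise, among them Il2ra (109%, against 99.2%), Furin (104%, against 94.1%) and Kif21b (101%, against 93.6%). In edgeR's fit all 67 passed in both contrasts, where 17.9% of all genes tested passed upward in TGFb versus Ctrl and 20.6% passed downward in SIS3_TGFb versus TGFb. Because the rule used those contrasts, nothing is read from that count. Over all genes, rises made up 52.2% of the calls in TGFb versus Ctrl and 41.3% with upper-quartile factors. In SIS3_TGFb versus TGFb they made up 50.6%, and 71.1% without scaling factors.

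The thresholds cut through a continuum. Myom3 (5.33 CPM), Aldh1l1 (5.52 CPM) and Smad3 (6.52 CPM) were just inside the limit on mean level, and Epb41l1 (4.63 CPM), Mical2 (4.62 CPM) and Acsl3 (4.40 CPM) just outside. For the rise, Atp2b4 (0.41), Ccdc6 (0.42) and Git1 (0.42) were inside and F730043M19Rik (0.396), Lss (0.39) and Sertad3 (0.39) outside. For the fall, Lpar6 (-0.302), Fmnl3 (-0.31) and Git1 (-0.32) were inside and Sp100 (-0.296), Prr12 (-0.29) and H6pd (-0.28) outside. The separation of libraries was narrowest for Tnf, Dusp10 and A230072C01Rik, whose lowest TGFb library stood 0.038, 0.079 and 0.13 above the highest other library on the log2 scale. Phtf1os (-0.046), Nxnl2 (-0.064) and Tnfsf10 (-0.21) missed it.

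From here on, levels are CPM scaled with TMM factors, 1 value for each library in the order of replicates 1, 2 and 3. Log2 changes are from edgeR's quasi-likelihood fit of all 9 libraries and are given with an SE. On this scale too, the TGFb libraries lay above all others for each of the 67 members.

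**Figure D2:**
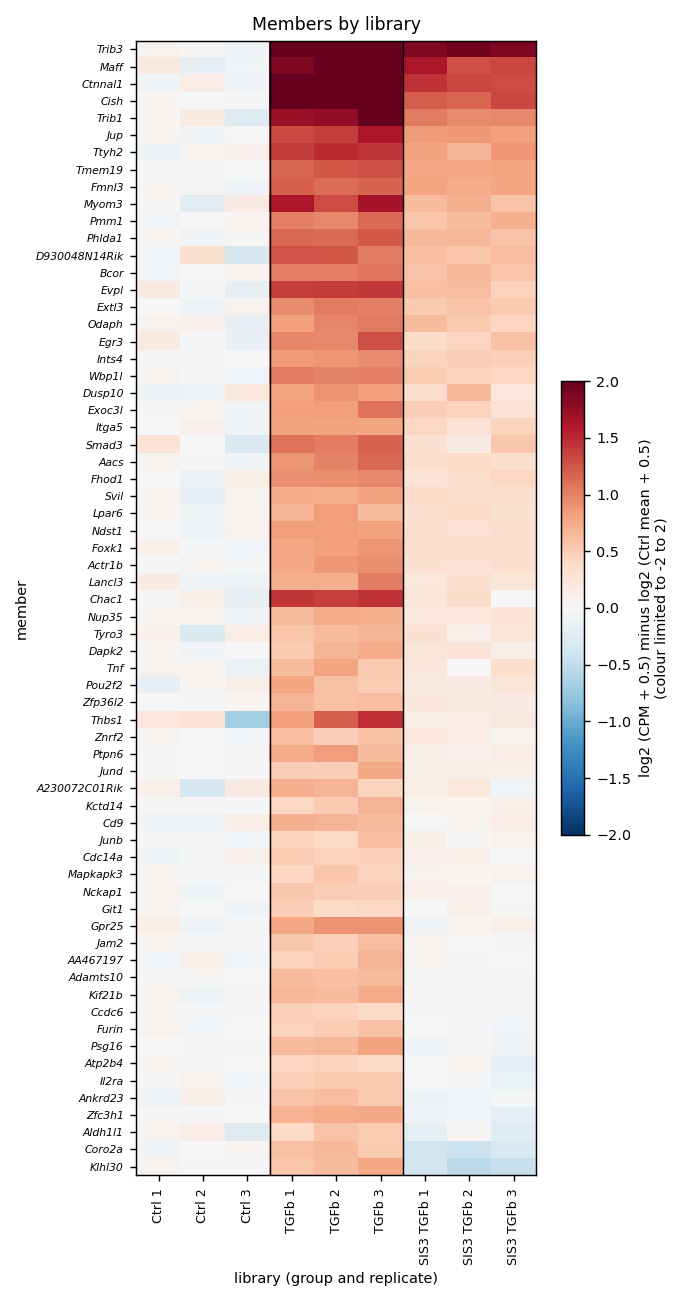
Rows are 66 of the members, ordered by the log2 change of SIS3_TGFb versus Ctrl, and columns are the 9 libraries. Colour gives log2 (CPM + 0.5) relative to the Ctrl mean, limited to -2 to 2. The 3 TGFb columns are the reddest in each row (or at the colour limit), while the SIS3_TGFb columns run from red at the top (Trib3, Maff) to pale blue at the bottom (Coro2a, Klhl30).

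On the TGF-β pathway lists, 4 genes were members. They were Junb and Trib1 of 34 tested SMAD targets and feedback genes (5.88%) and Smad3 and Furin of 28 tested pathway components (7.14%), where 0.549% of all genes tested were members. Smad3 (chromosome 9, 63646766 to 63757994, minus strand, GRCm38.p6), the transcription factor SIS3 is aimed at, stood at 5.23, 4.25 and 3.41 CPM in Ctrl, 9.66, 9.21 and 10.4 CPM in TGFb and 5.43, 4.88 and 6.50 CPM in SIS3_TGFb. The SIS3_TGFb libraries overlapped with Ctrl, and the level is low in every group. The steps were 1.18 ± 0.155 and -0.80 ± 0.148 on the log2 scale. The transcript of Smad3 was thus lower where its protein's inhibitor had been given. These are transcript levels, and SIS3 is described as lowering the phosphorylation of the protein.

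Furin, the protease that cleaves the TGF-β precursor (chromosome 7, 80389194 to 80405441), stood at 245, 225 and 233 CPM in Ctrl, 322, 333 and 351 CPM in TGFb and 235, 229 and 226 CPM in SIS3_TGFb. The last group lay within the range of the untreated one. Thbs1, which encodes thrombospondin-1, a secreted protein that can activate latent TGF-β (chromosome 2, 118111876 to 118127133), was the most variable member. It stood at 36.6, 38.5 and 19.5 CPM in Ctrl, 55.8, 72.5 and 88.6 CPM in TGFb and 34.2, 34.9 and 35.7 CPM in SIS3_TGFb. Ctrl replicate 3 was low and TGFb replicate 3 high, with coefficients of variation of 33.3% and 22.7% in those groups. In macrophage markers, those same libraries were the highest Ctrl library (1538 CPM) and the lowest TGFb library (933 CPM). Whether those cells bear on Thbs1 was not tested.

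Trib1, a pseudokinase that brings proteins to a ubiquitin ligase (chromosome 15, 59648654 to 59657099), stood at 5.93, 6.59 and 4.74 CPM in Ctrl, 20.3, 20.8 and 24.6 CPM in TGFb and 12.4, 11.5 and 11.7 CPM in SIS3_TGFb. It kept apart in all 3 groups. Junb, an AP-1 transcription factor known as an early TGF-β target (chromosome 8, 84976909 to 84978748), stood at 296, 295 and 280 CPM in Ctrl, 396, 383 and 438 CPM in TGFb and 314, 294 and 305 CPM in SIS3_TGFb. Here SIS3_TGFb overlapped with Ctrl.

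The best known feedback genes of the pathway were not in the set. Pmepa1, a membrane protein that dampens the signal, rose by 7.69 ± 0.103 with TGF-β1 and changed by -0.18 ± 0.047 at the SIS3 step, a call lost without scaling factors (-0.10, adjusted p = 0.11). Smad7, the inhibitory Smad, rose from 7.04 ± 1.12 to 26.7 ± 1.72 CPM (SD, n = 3) and stood at 31.7 ± 2.34 CPM with SIS3. That step (0.25 ± 0.082, adjusted p = 0.023) lost its call with DESeq2 (adjusted p = 0.065) and when SIS3_TGFb replicate 1 (0.099) or 2 (0.079) or TGFb replicate 1 (0.10) was left out. Ski, a corepressor of Smads, rose by 3.07 ± 0.054 and fell by 0.34 (SE 0.044) at the SIS3 step, but the step on CPM by library total (-0.26) was short of the threshold. Skil, its relative, rose by 1.33 ± 0.048, and its SIS3 step of 0.05 ± 0.044 did not pass, though it did without scaling factors (0.14, adjusted p = 0.019) and without SIS3_TGFb replicate 3 (0.11, adjusted p = 0.031). Ldlrad4, another inhibitor of the pathway, rose by 2.98 ± 0.075. Its SIS3 step of 0.15 ± 0.054 passed narrowly (adjusted p = 0.039) and not in 9 alternatives: without any 1 of the 6 TGFb and SIS3_TGFb libraries (adjusted p = 0.052 to 0.15), with no filter on low counts (0.064), with the replicate block (0.063) and with DESeq2 (0.19). Tgfb1, the ligand gene, rose by 1.19 ± 0.040, and its SIS3 step of -0.03 ± 0.039 did not pass. Tgfbr1, which encodes a TGF-β receptor kinase, rose by 0.27 ± 0.056. Its SIS3 step of -0.16 ± 0.055 passed (adjusted p = 0.033), but not without scaling factors (-0.07, adjusted p = 0.34), without TGFb replicate 2 (0.10) or 3 (0.066), without SIS3_TGFb replicate 1 (0.056) or 2 (0.12) or with DESeq2 (0.074).

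Over both pathway lists, 58 tested genes were no members. With TGF-β1, 27 of them rose and 6 fell, where 17.9% and 16.4% of all genes did. At the SIS3 step, 19 rose and 9 fell, where 21.2% and 20.6% of all genes did. Among the SMAD targets alone, 18 of 32 rose, 4 fell and 10 did not pass with TGF-β1, and 14 rose, 5 fell and 13 did not pass at the SIS3 step (median log2 change 0.19, against 0.01 over all genes). Among the other Smad genes, Smad1 rose by 0.76 ± 0.076, Smad2 by 0.19 ± 0.048 and Smad4 by 0.18 ± 0.050 at the SIS3 step, the opposite direction to Smad3.

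Trib3 had the largest steps of the set. It encodes a pseudokinase of the same family as Trib1 and is known as a target of the stress transcription factor ATF4. It stood at 10.0, 9.73 and 8.94 CPM in Ctrl, 97.7, 101 and 97.8 CPM in TGFb and 35.7, 37.7 and 36.2 CPM in SIS3_TGFb. The libraries of each group lay close together and far from the other groups. The steps were 3.37 ± 0.057 and -1.44 ± 0.046, which left Trib3 1.93 ± 0.062 above Ctrl. Trib2, the other gene of the family tested, was near the detection limit (0.349 ± 0.122, 1.06 ± 0.47 and 1.07 ± 0.503 CPM). At that low level its rise with TGF-β1 passed (log2 change 1.59), and its SIS3 step of 0.005 did not.

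Chac1, an enzyme that degrades glutathione and is likewise known as an ATF4 target (chromosome 2, 119351242 to 119354326), stood at 6.37, 6.84 and 5.54 CPM in Ctrl, 17.6, 17.0 and 17.9 CPM in TGFb and 7.50, 8.25 and 6.21 CPM in SIS3_TGFb. The last group overlapped with Ctrl. These were the 2 members among 49 tested genes of a list of the ATF4 amino acid response. The other 47 went differently. With TGF-β1, 9 of them rose and 23 fell (17.9% and 16.4% of all genes). At the SIS3 step 46 rose, 0 fell and 1 did not pass (21.2% of all genes rose and 20.6% fell). Ddit3, which encodes the stress factor CHOP, rose from 19.4 ± 2.22 to 127 ± 8.56 CPM at that step, and Asns, asparagine synthetase, by 0.89 ± 0.038.

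Promoters of both genes are printed because ATF4 is known to bind elements of the form TGATGNAA (reverse complement TTNCATCA). Windows run from 250 bases before to 50 bases after the RefSeq start in GRCm38.p6, written 5′ to 3′ along the gene's own strand, with the match in capitals. The match of Trib3 begins at position 15 after the start and that of Chac1 at -193. The Trib3 window is chr2:152344011-152344310 on the minus strand and the Chac1 window chr2:119350992-119351291 on the plus strand.
Trib3: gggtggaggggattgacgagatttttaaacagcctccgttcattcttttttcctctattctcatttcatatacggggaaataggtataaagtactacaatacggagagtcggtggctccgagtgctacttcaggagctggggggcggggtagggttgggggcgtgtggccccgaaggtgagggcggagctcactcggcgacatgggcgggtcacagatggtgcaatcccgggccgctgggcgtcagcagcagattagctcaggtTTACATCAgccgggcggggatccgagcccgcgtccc
Chac1: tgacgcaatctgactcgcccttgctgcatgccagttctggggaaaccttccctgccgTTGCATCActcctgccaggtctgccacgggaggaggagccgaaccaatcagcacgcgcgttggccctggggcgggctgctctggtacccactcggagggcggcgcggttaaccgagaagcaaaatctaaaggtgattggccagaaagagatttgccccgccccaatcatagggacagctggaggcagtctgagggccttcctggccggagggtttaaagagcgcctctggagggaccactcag

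Tmem19, a transmembrane protein, was the third member with this motif, at -229 from a start of its own (chr10:115362452-115362751, minus strand).
Tmem19: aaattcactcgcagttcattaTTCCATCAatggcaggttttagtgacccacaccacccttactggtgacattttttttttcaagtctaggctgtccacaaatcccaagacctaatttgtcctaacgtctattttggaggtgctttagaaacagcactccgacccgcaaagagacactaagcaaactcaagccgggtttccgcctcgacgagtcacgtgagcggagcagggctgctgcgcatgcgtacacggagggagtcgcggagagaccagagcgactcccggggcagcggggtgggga

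Of 59 windows of 47 members, 5.08% held the motif, against 2.34% of 12415 windows of other tested genes. Tmem19 stood at 47.1, 48.9 and 47.8 CPM in Ctrl, 108, 114 and 116 CPM in TGFb and 82.7, 82.6 and 82.9 CPM in SIS3_TGFb. A match is a stretch of letters and does not show that a factor binds.

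Cytokine and receptor signalling gave 11 members, of which 5 remained above Ctrl in SIS3_TGFb, 0 lay below and 6 did not pass. Of all genes tested, 29% were above Ctrl in that comparison and 24.9% below. The rule used these libraries, so nothing is read from an excess over them. Cish, a suppressor of cytokine signalling that STAT5 induces and that restrains the response of NK cells to IL-15, was the most changed of them (chromosome 9, 107296659 to 107302784). It stood at 11.9, 11.5 and 11.3 CPM in Ctrl, 51.8, 58.1 and 52.3 CPM in TGFb and 27.5, 26.4 and 29.8 CPM in SIS3_TGFb. The 3 groups did not overlap. All cultures held IL-15 and IL-2, which act through STAT5. Socs3, of the same family, rose by 0.94 ± 0.172 with TGF-β1, and its SIS3 step of 0.08 ± 0.154 did not pass.

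The window at the start of Cish held both of its matches to TTCNNNGAA, the form of a STAT element (its own reverse complement), at positions 1 and 12 after the start (chr9:107296409-107296708, plus strand).
Cish: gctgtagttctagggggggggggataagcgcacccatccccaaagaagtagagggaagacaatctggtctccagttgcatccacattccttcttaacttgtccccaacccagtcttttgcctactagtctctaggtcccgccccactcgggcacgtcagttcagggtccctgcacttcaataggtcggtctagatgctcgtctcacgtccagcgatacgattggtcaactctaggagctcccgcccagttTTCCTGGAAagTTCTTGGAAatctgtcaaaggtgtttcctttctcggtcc

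Il2ra, the α chain of the IL-2 receptor (chromosome 2, 11642792 to 11693194), was the most abundant member. It stood at 596, 641 and 588 CPM in Ctrl, 850, 876 and 871 CPM in TGFb and 603, 596 and 557 CPM in SIS3_TGFb, which overlapped with Ctrl. The difference of SIS3_TGFb from Ctrl was -0.06 ± 0.041, so bounds of 2 SE ran from -0.14 to 0.03. Of the 35 other tested genes on the list of cytokine receptors and STAT5 response, 7 rose and 15 fell with TGF-β1 (17.9% and 16.4% of all genes). At the SIS3 step 7 rose and 10 fell (21.2% and 20.6% of all genes).

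Tnf, the inflammatory cytokine, stood at 14.1, 13.9 and 12.1 CPM in Ctrl, 20.9, 23.4 and 19.4 CPM in TGFb and 15.8, 13.2 and 17.2 CPM in SIS3_TGFb, with overlap between the outer groups. Ptpn6 encodes SHP-1, the phosphatase that inhibitory NK receptors recruit. It stood at 52.9, 53.7 and 54.3 CPM in Ctrl, 89.8, 96.4 and 83.5 CPM in TGFb and 58.4, 56.9 and 59.4 CPM in SIS3_TGFb. All 3 SIS3_TGFb values exceeded all 3 Ctrl values, but the difference of 0.12 ± 0.052 did not pass (adjusted p = 0.066). Of the other members, Dusp10 and Phlda1 (on a list of ERK feedback genes) remained above Ctrl by 0.43 ± 0.131 and 0.64 ± 0.047. Dusp10 inactivates p38 and JNK. Mapkapk3, a kinase activated by p38, was at 0.06 ± 0.043 over Ctrl and did not pass. Of the receptor genes, Lpar6 (a lysophosphatidic acid receptor) lay 0.34 ± 0.065 above Ctrl, while Tyro3 (a receptor kinase, 0.23 ± 0.106) and Gpr25 (an orphan receptor, 0.03 ± 0.073) did not pass.

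Transcription factors and regulators of RNA decay gave 8 members, of which 5 remained above Ctrl (29% of all genes) and 3 did not pass. Maff, a small Maf protein that lacks an activation domain, stood at 12.5, 9.61 and 10.3 CPM in Ctrl, 40.7, 44.1 and 50.3 CPM in TGFb and 34.5, 27.2 and 28.2 CPM in SIS3_TGFb. It kept well above Ctrl in every SIS3_TGFb library (1.47 ± 0.117). The related Mafk rose by 1.37 ± 0.064 and then rose further by 0.36 ± 0.056. Of the 4 other Maf genes tested, Mafk was the 1 that rose with TGF-β1, and 3 fell (17.9% and 16.4% of all genes). Egr3, an early response zinc finger factor, stood at 8.07, 6.90 and 6.33 CPM in Ctrl, 14.5, 14.3 and 18.2 CPM in TGFb and 9.33, 9.70 and 10.9 CPM in SIS3_TGFb, without overlap. Egr1 rose by 1.13 ± 0.063 with TGF-β1, and its SIS3 step of 0.01 ± 0.058 did not pass.

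Jund, another AP-1 factor, stood at 380, 375 and 366 CPM in Ctrl, 526, 526 and 633 CPM in TGFb and 408, 403 and 402 CPM in SIS3_TGFb. TGFb replicate 3 was the high library. Jun itself did not pass with TGF-β1 (0.09 ± 0.053) and fell by 0.18 (SE 0.053) at the SIS3 step. Of 28 tested immediate early and AP-1 genes, Junb, Jund, Maff and Egr3 were members. Of the other 24, 6 rose and 8 fell with TGF-β1 (17.9% and 16.4% of all genes). At the SIS3 step 11 of them rose and 5 fell (21.2% and 20.6% of all genes). Bcor, a corepressor of Polycomb complexes, remained 0.60 ± 0.047 above Ctrl and Foxk1, a forkhead factor, 0.33 ± 0.045. Its relative Foxk2 fell at each step, by 0.19 (SE 0.049) and by 0.46 (SE 0.051). Zfp36l2, which binds AU-rich elements and promotes RNA decay, stood at 501, 494 and 521 CPM in Ctrl, 809, 761 and 772 CPM in TGFb and 589, 581 and 565 CPM in SIS3_TGFb.

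Adhesion and matrix genes gave 7 members, with 4 above Ctrl in SIS3_TGFb (29% of all genes) and 3 that did not pass. Jup and Evpl encode plakoglobin and envoplakin, proteins of desmosomes. Jup stood at 49.4, 45.3 and 47.6 CPM in Ctrl, 119, 125 and 148 CPM in TGFb and 86.4, 86.9 and 84.5 CPM in SIS3_TGFb. Ctnnal1, an α-catenin relative, stood at 10.3, 12.3 and 10.4 CPM in Ctrl, 51.5, 54.9 and 60.0 CPM in TGFb and 30.7, 28.3 and 27.8 CPM in SIS3_TGFb. Neither overlapped between groups. Itga5, the α chain of the fibronectin receptor, remained 0.39 ± 0.051 above Ctrl. Cd9, a tetraspanin linked to tissue-resident NK cells, stood at 64.9, 65.2 and 74.8 CPM in Ctrl, 112, 109 and 107 CPM in TGFb and 68.7, 71.5 and 76.1 CPM in SIS3_TGFb, with overlap between the outer groups. Itga1, a residency integrin that is no member, rose by 0.80 ± 0.066, and its SIS3 step of -0.10 ± 0.064 did not pass.

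Of 10 members grouped under cytoskeleton and transport, 5 remained above Ctrl (29% of all genes), 2 lay below (24.9%) and 3 did not pass. The formins Fmnl3 and Fhod1, which build actin filaments, remained 0.78 ± 0.043 and 0.35 ± 0.060 above Ctrl. Their relative Fmnl1, far more abundant at 411 ± 10.6 CPM in Ctrl, did not pass at either step. Kif21b, a kinesin motor, stood at 209, 187 and 203 CPM in Ctrl, 318, 310 and 334 CPM in TGFb and 203, 197 and 196 CPM in SIS3_TGFb, within the Ctrl range. The members below Ctrl were Coro2a, a coronin that binds actin, and Klhl30, a kelch-like protein. The placing of Klhl30 in this group was a choice, and no such role was tested.

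Klhl30 (chromosome 1, 91351073 to 91362404) stood at 86.2, 80.8 and 80.2 CPM in Ctrl, 121, 128 and 141 CPM in TGFb and 63.9, 56.6 and 60.3 CPM in SIS3_TGFb. Coro2a (chromosome 4, 46536937 to 46601929) stood at 48.4, 50.9 and 52.8 CPM in Ctrl, 76.7, 79.5 and 73.3 CPM in TGFb and 38.1, 37.6 and 41.0 CPM in SIS3_TGFb. For both, every SIS3_TGFb library was below every Ctrl library. The differences were -0.45 ± 0.059 (adjusted p = 9.2e-06) and -0.38 ± 0.054 (adjusted p = 2.0e-05).

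Metabolic and membrane genes gave 7 members, of which 5 remained above Ctrl (29% of all genes) and 2 did not pass. They include Ndst1 and Extl3, enzymes of heparan sulfate synthesis, at 0.33 ± 0.054 and 0.54 ± 0.047 above Ctrl. Extl1, a relative of Extl3, went the other way (-0.37 ± 0.135 with TGF-β1, then 2.65 ± 0.108). Aacs, which activates acetoacetate, remained 0.35 ± 0.063 above Ctrl and Pmm1, a phosphomannomutase, 0.64 ± 0.061. Atp2b4, a plasma membrane calcium pump (-0.04 ± 0.049), and Aldh1l1, a folate enzyme (-0.14 ± 0.152), did not pass.

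Ints4, a subunit of the Integrator complex, which processes small nuclear RNAs, stood at 164, 157 and 160 CPM in Ctrl, 291, 297 and 310 CPM in TGFb and 219, 226 and 224 CPM in SIS3_TGFb. Of 13 other Integrator subunits, 1 rose with TGF-β1 (Ints10, 0.78 ± 0.058), 2 fell and 10 did not pass. Of all genes, 17.9% rose and 16.4% fell.

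Zfc3h1, which targets nuclear polyadenylated RNA for decay, stood at 147, 141 and 146 CPM in Ctrl, 234, 241 and 245 CPM in TGFb and 138, 140 and 126 CPM in SIS3_TGFb. The SIS3_TGFb libraries were all just below Ctrl. Its difference of -0.10 ± 0.042 passed narrowly (adjusted p = 0.048), and the call was lost without Ctrl replicate 1 (adjusted p = 0.13) or 3 (0.11), or without SIS3_TGFb replicate 1 (0.054) or 3 (0.23).

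**Figure D3:**
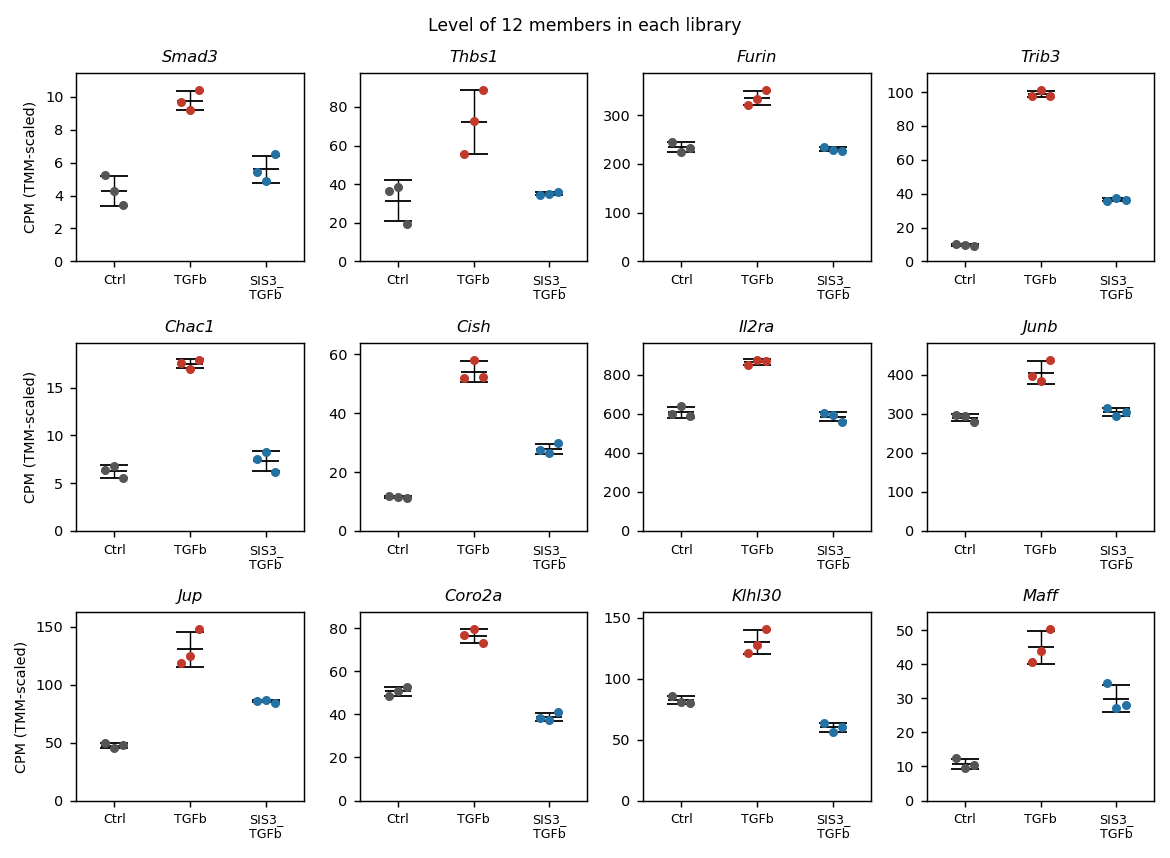
Points are the CPM (TMM-scaled, linear axis from 0) of 12 members in each of 9 libraries, with the group mean and SD in black. TGFb is highest in each panel, and SIS3_TGFb ranges from Ctrl level (Furin, Il2ra, Chac1) to between the groups (Trib3, Cish, Jup, Maff) and below Ctrl (Coro2a, Klhl30).

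Comparing SIS3_TGFb with Ctrl asks how far the members returned to the untreated level. The rule bounded each step but not this difference, although it used the same libraries. The lower limit for the fall (0.3) than for the rise (0.4) favours values above 0. Those limits were set on CPM by library total. In edgeR's fit the smallest rise of a member was 0.43 and the smallest fall -0.39. By edgeR's test with Benjamini-Hochberg adjustment over 12212 genes, 36 of the 67 members were above Ctrl, where 29% of all genes were, and 3 were below (Klhl30, Coro2a and Zfc3h1), where 24.9% were. The other 28 did not pass. These counts and their p-values are not independent of the choice of members, so the excess over 29% is no finding. The median log2 difference was 0.23 over the members and 0.02 over all genes. Over all genes, 53.8% of the calls were above Ctrl, and 63.8% without scaling factors. In 41 members the lowest SIS3_TGFb library exceeded the highest Ctrl library (32.6% of all genes), in 3 all SIS3_TGFb libraries were below Ctrl (28.4%), and in 23 the groups overlapped.

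Of the 36 above Ctrl, 6 exceeded it by a log2 of at least 1, among them Trib3 (1.93 ± 0.062), Maff (1.47 ± 0.117), Ctnnal1 (1.40 ± 0.085), Cish (1.27 ± 0.076) and Trib1 (1.04 ± 0.122). Another 12 exceeded it by 0.5 to 1, among them Jup (0.86 ± 0.068) and Ttyh2, a Tweety family membrane protein (0.82 ± 0.089), and 18 by less than 0.5. Of the 28 that did not pass, 16 had bounds of 2 SE within 0.2 of Ctrl on either side, including Furin, Il2ra, Kif21b, Adamts10 and Ccdc6. Of the other 12, Ptpn6 and Jund had intervals just above 0 (0.015 to 0.22 and 0.002 to 0.23). Those of Tyro3 (0.014 to 0.44) and Smad3 (0.056 to 0.71) were also above 0. Wide intervals were found for Smad3 (0.39 ± 0.164, adjusted p = 0.06), Chac1 (0.23 ± 0.125, adjusted p = 0.14) and Thbs1 (0.15 ± 0.193, adjusted p = 0.53). For these 3 a remaining difference did not pass the test, which does not show that it was absent. Chac1 passed without SIS3_TGFb replicate 3 (adjusted p = 0.035), and Smad3 without Ctrl replicate 1 (0.017) or SIS3_TGFb replicate 2 (0.040). Tnf passed without SIS3_TGFb replicate 2 (0.30, adjusted p = 0.025) and Cd9, one of the 16, without Ctrl replicate 3 (0.15, adjusted p = 0.031). Jund passed without scaling factors (0.18, adjusted p = 0.007) and with only the 2 groups compared (0.10, adjusted p = 0.018), and Junb without scaling factors (0.13, adjusted p = 0.014). Dusp10 no longer passed without SIS3_TGFb replicate 2 (0.077).

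**Figure D4:**
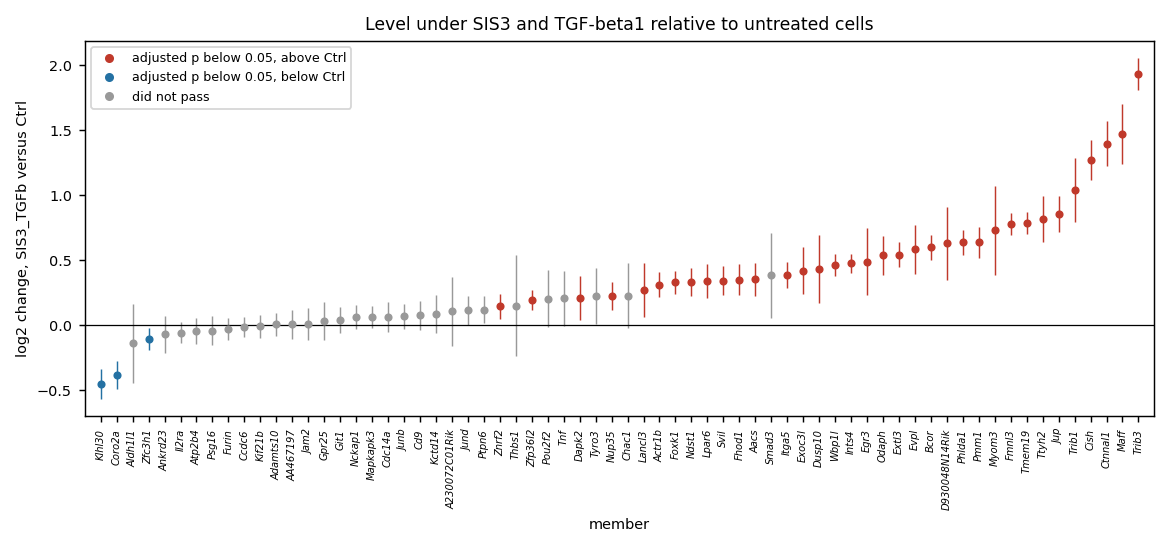
Points give the log2 change of SIS3_TGFb versus Ctrl for 66 of the members, with bars of 2 SE from edgeR's fit. The 35 drawn above Ctrl (red) reach 1.93 at Trib3, and the 3 below (blue) reach -0.45 at Klhl30. The 28 that did not pass (grey) run from -0.14 (Aldh1l1) to 0.39 (Smad3).

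Libraries of a group held the set at similar levels. The median log2 level relative to the Ctrl mean was 0.04, -0.01 and -0.03 in the Ctrl libraries, 0.77, 0.81 and 0.81 in the TGFb libraries and 0.25, 0.25 and 0.24 in the SIS3_TGFb libraries. The median coefficient of variation over members was 5.18% in Ctrl, 4.48% in TGFb and 4.04% in SIS3_TGFb. TGFb replicate 3 was the highest TGFb library for 37 of the 67 members, replicate 1 for 13 and replicate 2 for 17. That library also had the lowest TMM factor (0.956). The same count was not made over all genes, so it is not read as a trait of the set. Without TGFb replicate 3, 76 genes met the rule, 63 of them among the 67.

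Some members lie next to each other in the genome, a pattern noticed after the values were seen. Within 100 kb, 7 pairs of members were neighbours. The closest were Mapkapk3 and Cish on chromosome 9, 6.78 kb apart and transcribed away from each other. The others include Kctd14 and Ints4 (chromosome 7, 21.4 kb), Tmem19 and Zfc3h1 (chromosome 10, 22.3 kb), Exoc3l and Fhod1 (chromosome 8, 32.2 kb), Nckap1 and Nup35 (chromosome 2, 57.6 kb) and Kif21b and Gpr25 (chromosome 1, 80.9 kb). Genes between such pairs also moved. Thap2, between Tmem19 and Zfc3h1, rose by 0.70 ± 0.104 and fell by 0.31 (SE 0.099). E2f4, between Exoc3l and Fhod1, rose by 0.39 ± 0.039 and fell by 0.35 (SE 0.039). Dusp19, between Nckap1 and Nup35, rose by 0.31 ± 0.092 and fell by 0.30 (SE 0.092).

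Of 223 genes within 100 kb of a member (mean of at least 5 CPM, no overlap with the member), 14 (6.28%) were members themselves, while members made up 0.692% of 9683 such genes with a position. The share was 7.35% within 50 kb and 4.82% within 200 kb, and with the 115 members found on TMM-scaled CPM it was 4.58% against 1.19%. The 729 positioned genes that met the rise but not the fall also lay near each other (13.5% of their neighbours against 7.53%). Of 209 neighbours of members that were no members, 57 (27.3%) rose with TGF-β1 and 20 (9.57%) fell, against 19.9% and 18.9% of all genes outside the set. At the SIS3 step 73 (34.9%) fell and 27 (12.9%) rose, against 24.6% and 22.8%. These shares are descriptions, and the distances and the TMM-scaled version were chosen after seeing the data. Gene density around members was not matched, and the part of reads running on from one gene into the next was not tested.

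**Figure D5:**
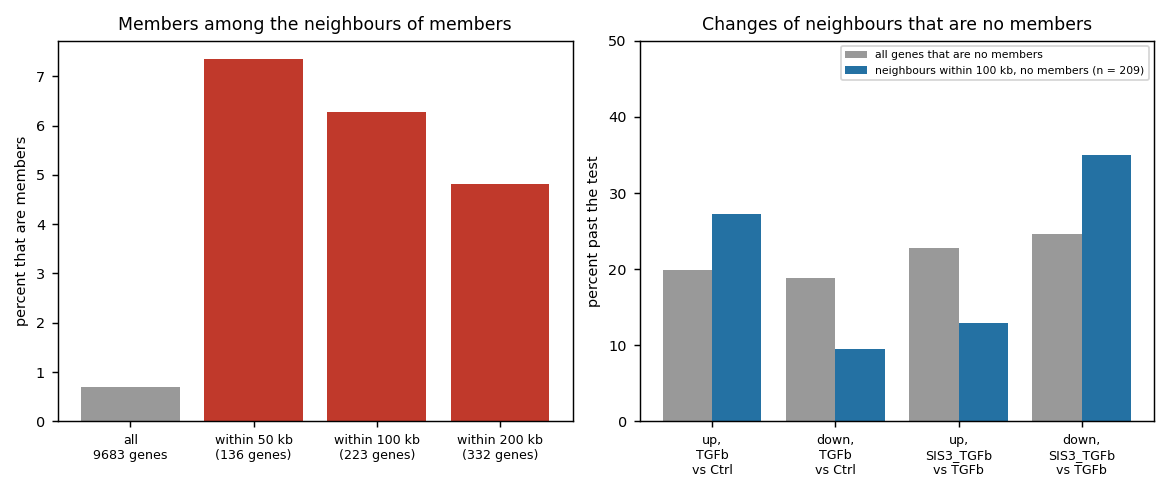
Left, percent of genes that are members, among all 9683 positioned genes (grey) and among genes within 50, 100 or 200 kb of a member (red). Right, percent of genes past edgeR's test in each direction and step, for all genes that are no members (grey) and for the 209 neighbours within 100 kb (blue). Members are 0.692% of all genes and 6.28% of those within 100 kb, and neighbours more often rose with TGF-β1 and fell at the SIS3 step.

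The promoter windows of the members held the 2 SMAD motifs searched about as often as those of other tested genes, counting both strands. CAGAC was in 44.1% of member windows and 47.3% of others, and GGCGC in 57.6% and 61.3%. The AP-1 form TGANTCA was in 8.47% and 5.16% (AA467197, D930048N14Rik, Fmnl3, Odaph and Wbp1l), and TTCNNNGAA in 10.2% and 6.96%. CACGTG was in 10.2% and 9.96%, TGTGGT in 11.9% and 13.3%, TGACGTCA in 1.69% and 3.11% and GCGTGGGCG in 1.69% and 1.22%. GGCGC and GCGTGGGCG are rich in G and C, and the windows had a median of 61.3% G and C in members and 60.7% in others. Both motifs also contain the pair CG, whose median count per window was lower in members (15) than in others (20). Windows were not matched for this. The 20 members without a window that was used were left out.

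Of the 67 members, 16 were on any of 25 pathway lists and 51 on none. Members were 0.549% of all genes tested, so a list without one is near the overall share. Such lists include those for NK receptors (40 genes tested), NK transcription factors (41), MYC and ribosome biogenesis (53), cholesterol and fatty acid synthesis (39), interferon response (28) and p53 targets (29). Ncr1, the NK receptor gene for NKp46, moved opposite to the set, with 151 ± 4.86, 39.5 ± 1.13 and 77.3 ± 1.4 CPM in Ctrl, TGFb and SIS3_TGFb. Myc, which encodes a growth factor-induced transcription factor, fell at both steps (59.3 ± 0.793, 30.3 ± 1.38 and 9.55 ± 0.863 CPM). By annotation 65 members are protein coding and 2 are long non-coding RNA genes (D930048N14Rik and A230072C01Rik). D930048N14Rik overlaps N4bp3 and A230072C01Rik overlaps Uxt on the other strand, so their reads cannot be told apart from those genes' without strand. The same holds where Fhod1 overlaps Tmem208, Pou2f2 overlaps D930028M14Rik and Lpar6 overlaps Rb1. The median gene length from start to end was 25.7 kb in members and 22.4 kb in all tested genes.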

How the data were processed

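Poly-A RNA of 9 libraries (Ctrl, TGFb and SIS3_TGFb, n = 3 each) was read as 100 bp pairs per the labels. The authors deposited 1 table of expected counts per gene, not scaled for depth. Tools named in the submitters' processing notes are DESeq2, RSEM, Bowtie2, HISAT2, Cufflinks and StringTie, with mm10 (GRCm38) as build. Their versions and roles, and the counting strand, were not given in the sources used here. Expected counts were rounded, and 12212 genes passed filterByExpr of edgeR 4.0.16 (minimum count 10, minimum total 15). All libraries were fitted together with TMM factors by glmQLFit and glmQLFTest, two-sided, with Benjamini-Hochberg adjustment over all genes tested and a threshold of 0.05. The common biological coefficient of variation was 4.53%. SEs are absolute log2 changes over the root of F. Membership used CPM by library total, and printed levels use TMM scaling. The members, gene lists, motifs and role groups were chosen with earlier results of these data known. Named genes are the 12 members with the largest smaller step, the 8 most abundant, up to 3 per list, the 8 largest changes each way in SIS3_TGFb versus Ctrl and 12 pathway genes. All other genes named were chosen after their values were seen. Positions and promoter windows are from RefSeq (GRCm38.p6). Windows on chromosome 18, where the members Ndst1 and Svil lie, were not used. Of the 67 members, 47 had a window that was used. The test was checked on simulated counts. Alternatives were DESeq2 1.42.0, other scaling factors, no filter on low counts, a fit of the 2 groups compared alone, a replicate block and leaving out each library in turn. Results for 1 member are not reported here, and it is left out of the plots that name members.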

Additional observations from a re-analysis of the deposited data

How the results depend on the processing

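The number of members moved from 67 to 115 with TMM-scaled CPM, 120 with DESeq2 size factors and 14 with both steps of at least 0.58, and lay between 66 and 76 when 1 library was left out. In SIS3_TGFb versus Ctrl, the median log2 difference over the members moved from 0.23 to 0.19 with upper-quartile factors, 0.29 without scaling factors, 0.21 (0.213) with only the 2 groups compared and 0.21 (0.211) with DESeq2, and lay between 0.24 and 0.28 when 1 library was left out. Leaving out 1 library gave 33 to 37 members above Ctrl and 2 to 3 below. Of the 58 pathway genes that are no members, 6 fell in TGFb versus Ctrl, against 11 with upper-quartile factors and 2 to 5 when 1 library was left out. The cause of these shifts was not tested. Same-numbered libraries did not deviate together (correlations of -0.147 to 0.126). With 3 libraries per group this cannot show whether same-numbered samples shared a mouse or culture. A fit with the replicate block gave 34 members above and 2 below Ctrl and 2 pathway genes that fell. Over the named genes, contrasts and settings, 1428 values were labelled the same, 27 lost a call, 12 gained one, 9 moved in size and 0 changed sign. For members, the values of TGFb versus Ctrl and SIS3_TGFb versus TGFb were judged by size alone. The 1428 are therefore not all calls that were kept. Zfc3h1 also lost its call without scaling factors (adjusted p = 0.37) and with the replicate block (0.072).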
